A study of Mus musculus with 24 samples.

Results

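This report sets PyMT adenoma at week 8 against PyMT hyperplasia at week 6. The members were taken by genotype and age from the sample labels, as the 3 PyMT libraries of week 8 and the 3 of week 6, which makes 6 of the 24 libraries of the series. PyMT mice were F1 females, heterozygous for a transgene in which the mouse mammary tumor virus promoter drives the polyoma middle T antigen in mammary epithelium, on the FVB background. The 6-week mice are labelled hyperplasia, mammary gland, and the 8-week mice adenoma/MIN, tumor, where MIN stands for mammary intraepithelial neoplasia. Age, stage and the kind of tissue named on the label therefore moved together and cannot be told apart. Homozygous FVB females without the transgene, 3 at week 6 and 3 at week 8, served as the background of normal mammary gland. RNA came from whole snap-frozen tissue, so fewer cells of a type and less RNA per cell cannot be told apart.

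Middle T is a viral scaffold protein that binds Src family kinases, Shc and PI3-kinase at the membrane and so acts much like an activated growth factor receptor. In these mice the mammary ducts pass through hyperplasia and adenoma before they become carcinoma. The mammary gland also contains fat, stroma, vessels and immune cells, and it lies on the muscle of the skin and body wall. Milk protein genes such as the caseins and Wap are targets of prolactin, acting through STAT5, and are markers of secretory luminal differentiation.

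The 6 libraries held between 7701687 and 13516601 reads assigned to genes, and 14918 genes passed the filter on low counts. In some libraries the counts of low genes came in packets, as if 1 captured fragment appeared as many reads. The cause of the packets was not tested. The packet size was 14, 25 and 13 reads in week 6 replicates 1, 2 and 3, and 23 reads in week 8 replicate 2. The other two week 8 libraries showed no packets. Packet size thus moved with the stage. With counts divided by packet size 38 genes were called between the stages, against 24 in the fit reported here, and all 24 were among them. With both libraries of packet size above 20 left out, 1 from each stage, 21 were called. Only 15 of those 21 were shared with the 24. Week 6 replicate 2 and week 8 replicate 2, the pair with the largest packets, had the lowest rank correlation over genes of any pair among the 6 libraries (Spearman 0.883), against 0.972 for the closest pair. Epcam, an epithelial adhesion molecule, was high in all 6 libraries, at 4900 to 5092 normalized counts in week 6 and 4521 to 8175 in week 8. This shows epithelium in each library and cannot tell the label mammary gland from the label tumor.

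With edgeR's quasi-likelihood test, 24 of the 14918 genes differed more than 2-fold between week 8 and week 6 with an adjusted p below 0.05, which is 0.161% of all genes tested. All 24 fell and none rose in this fit, while other fits also called genes that rose, namely 12 of 53 with DESeq2's Wald test, 17 of 59 with edgeR's likelihood ratio test, 6 of 47 with its exact test and 60 of 171 with no filter on low counts. At an unadjusted p under 0.05 there were 573 genes (3.84%), 286 higher (1.92%) and 287 lower (1.92%) at week 8. The count rested on single libraries, in that no gene passed without week 8 replicate 2 (447 at an unadjusted p under 0.05), 12 passed without week 6 replicate 1 and 15 without week 8 replicate 3. The sizes of the changes did not shrink in the same way, since without week 8 replicate 2 the log2 fold change was -8.34 for Acta1, -9.01 for Ckm and -1.82 for Lao1. The 24 genes comprised 23 genes of skeletal muscle and Lao1, which encodes the L-amino acid oxidase of milk. A gene was counted as muscle-associated where its level followed 17 skeletal muscle markers over the 12 FVB libraries (Pearson r above 0.9), a definition that used no PyMT library. There were 91 such genes.

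Acta1, skeletal muscle actin (chromosome 8, 126415669 to 126418651, mm9), had normalized counts of 5405, 3805 and 846 in the week 6 libraries and 9, 7 and 11 in those of week 8. The groups were far apart, and the third week 6 library held the least of the muscle transcript within its group. The log2 fold change of Acta1 was -8.50 (SE 0.73, adjusted p = 0.0036). Ckm, muscle creatine kinase, stood at 3306, 1474 and 496 against 3, 4 and 4, with a log2 fold change of -8.96 (SE 0.80, adjusted p = 0.0036). Myh4, a fast myosin heavy chain, stood at 15510, 8810 and 1733 against 35, 19 and 26 (log2 fold change -8.32, SE 0.79). Ttn, the giant sarcomere protein titin, was the most abundant of the 24 genes, at 60699, 35352 and 6142 normalized counts in week 6 and 151, 181 and 158 in week 8. These 4 genes span thin filament, energy supply, motor and scaffold of the same fibre, and no week 8 library reached the lowest week 6 library in any of them.

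Other muscle genes that fell belong to the same machinery. They encode the calcium pump Atp2a1, the release channel Ryr1 and the calcium store protein Casq1, the thin filament regulators Tnnt3, Tnni2 and Tnnc2, the myosin subunits Myh1, Mylpf and Myl1, and the fast fibre proteins Actn3 and Pvalb. Sarcomere scaffolds Neb, Myom2, Mybpc2 and Xirp2 fell as well, as did Klhl31, Ppp1r3a and the glycolytic enzyme Pgam2. The log2 fold changes ran from -4.86 for Myl1 to -9.43 for Atp2a1, leaving aside Pgam2. Pgam2 had normalized counts of 169, 93 and 74 in week 6 and none in any week 8 library, so that it was at least 45.1-fold higher at week 6, with a floor of 3 counts per library. That bound covers counting error only.

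Of the 17 fixed skeletal muscle markers, 14 were called as lower, where 0.161% of all genes tested were. All 17 had a lower value at week 8, where 49.5% of all genes did. The list median was -7.67 on the log2 scale, against 0.0046 over all genes tested. The 3 that did not pass were Myh2 at -8.17 (adjusted p = 0.0696), Eno3 at -4.18 (adjusted p = 0.0785) and Mb, myoglobin, at -1.30. Summed over the list, normalized counts were 42185, 25715 and 5374 in week 6 and 181, 158 and 194 in week 8. Muscle-associated genes took 1.82, 1.15 and 0.386% of all counts in the week 6 libraries, and 0.201 to 0.206% in those of week 8. Every week 6 library therefore held muscle RNA, and the week 8 libraries held little.

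Muscle RNA varied widely over the rest of the series too. The mean log2 level of the 17 markers was 10.43, 9.75 and 7.49 in PyMT week 6 and 2.57, 2.30 and 2.96 in week 8, but it was 4.29, 0.85 and 10.37 in PyMT week 10. In FVB glands it was 14.41, 12.38 and 2.79 at week 6 and 4.87, 3.77 and 6.06 at week 8. One FVB library of week 6 was thus as low in muscle RNA as the PyMT tumors of week 8. Whether muscle was part of the dissected sample was not tested.

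**Figure D1:**
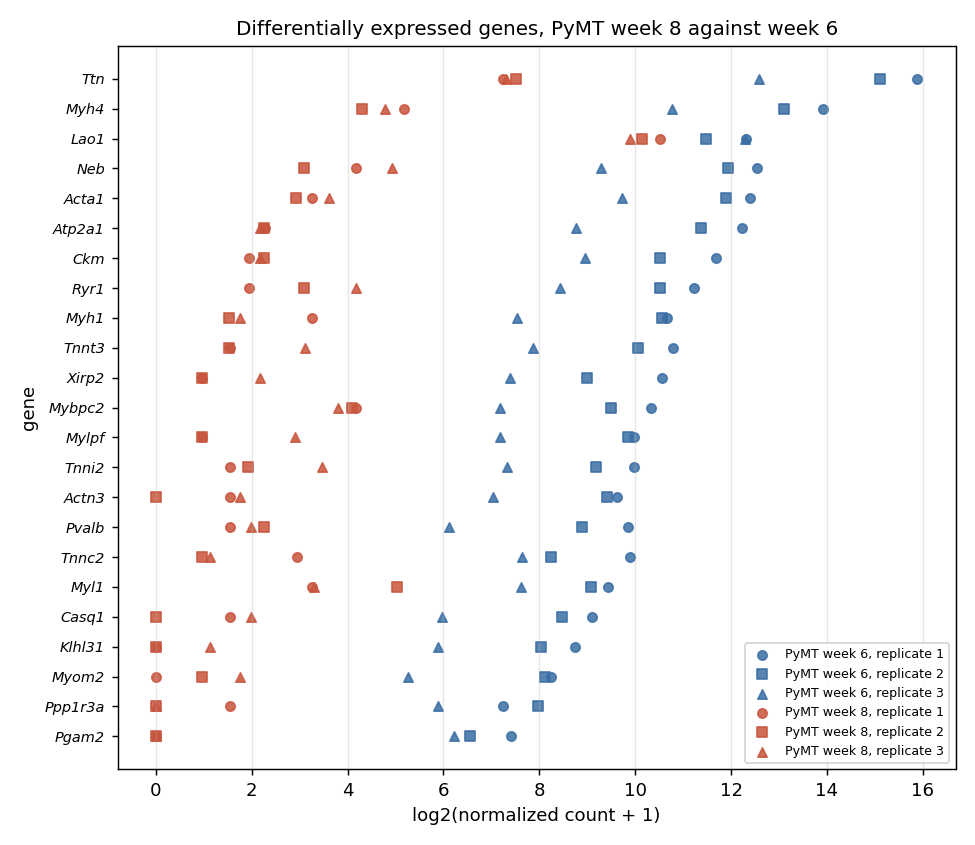
Level of 23 of the 24 differentially expressed genes in the 6 PyMT libraries, as log2(normalized count + 1) on the horizontal axis, with blue for week 6 and red for week 8 and marker shape for the replicate. In each row the 3 blue points lie to the right of the 3 red ones, and Lao1 shows a small gap between highly expressed groups. The muscle genes drop to low counts, with Ttn the highest of them at week 8.

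Lao1 (chromosome 4, 118634183 to 118641517, mm9) makes hydrogen peroxide from free amino acids and is secreted into milk. It had normalized counts of 5072, 2854 and 4996 in week 6 and 1456, 1123 and 944 in week 8. The groups did not overlap, and the gene stayed well expressed at both ages. The mean fell from 4307 ± 1259 (SD, n = 3) to 1174 ± 260 (SD, n = 3), a log2 fold change of -1.86 (SE 0.26, adjusted p = 0.018). Later PyMT tumors kept similar levels, at 1443, 1596 and 2077 in week 10 and 879, 686 and 966 in week 12. FVB glands of weeks 6 and 8 held only 2.33 to 78.8. At these low counts the FVB log2 fold change was -2.32, or -0.13 without FVB week 6 replicate 1. The difference between the PyMT and FVB changes of Lao1 was 0.42 and did not pass. Lao1 was lower at week 8 under each of the 22 alternatives run, and passed in 14 of them, with adjusted p from 1.1e-16 to 1.0. Without the muscle-associated genes in the fit, its adjusted p was 0.33 and no gene passed, whereas with all 12 PyMT libraries in the fit it was the single gene called (adjusted p = 0.016).

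Milk protein genes were divided. None of the 14 tested passed, 12 were lower at week 8 (49.5% of all genes were), and the median log2 fold change was -0.58. In 7 of the 14 the groups did not overlap with week 8 lower, where 5.46% of all genes tested showed this. These 7 include members not named here. The list median was -0.35 without week 6 replicate 1. Wap, whey acidic protein, stood at 5236, 1544 and 3592 in week 6 and at 764, 273 and 769 in week 8 (log2 fold change -2.50, SE 0.48, adjusted p = 0.17). Csn2, beta-casein, stood at 23382, 5302 and 15143 against 2918, 127 and 2532 (-2.95, SE 0.88, adjusted p = 1.0). Csn1s1 and Csn1s2a, the alpha-caseins, had log2 fold changes of -2.81 (SE 0.65) and -3.20 (SE 0.76), and their adjusted p were 0.49 and 0.56. Week 6 replicate 2 was the lowest of its group and week 8 replicate 2 the lowest of all 6 libraries in each of these 4 genes.

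Some other milk genes, such as Csn3 and Lalba, changed less between the stages, and Prlr and Elf5 are given beside them. Csn3, kappa-casein, stood at 42437, 24887 and 38148 in week 6 and 28038, 47101 and 30902 in week 8, a log2 fold change of 0.02 (SE 0.24). Lalba, the alpha-lactalbumin of lactose synthesis, had -0.46 (SE 0.26), with 4200 to 9864 against 4801 to 4935. Prlr, the prolactin receptor, stood at 2976, 2949 and 3182 against 2627, 2311 and 2070, with no overlap (-0.36, SE 0.16, adjusted p = 1.0). Elf5, a factor of the alveolar luminal lineage, showed -0.04 (SE 0.22). Wap and the caseins other than Csn3 were singled out after their values were seen. They passed in some other fits, in that Csn1s2a, Csn2, Wap and Csn1s1 were called when both libraries of packet size above 20 were left out.

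**Figure D2:**
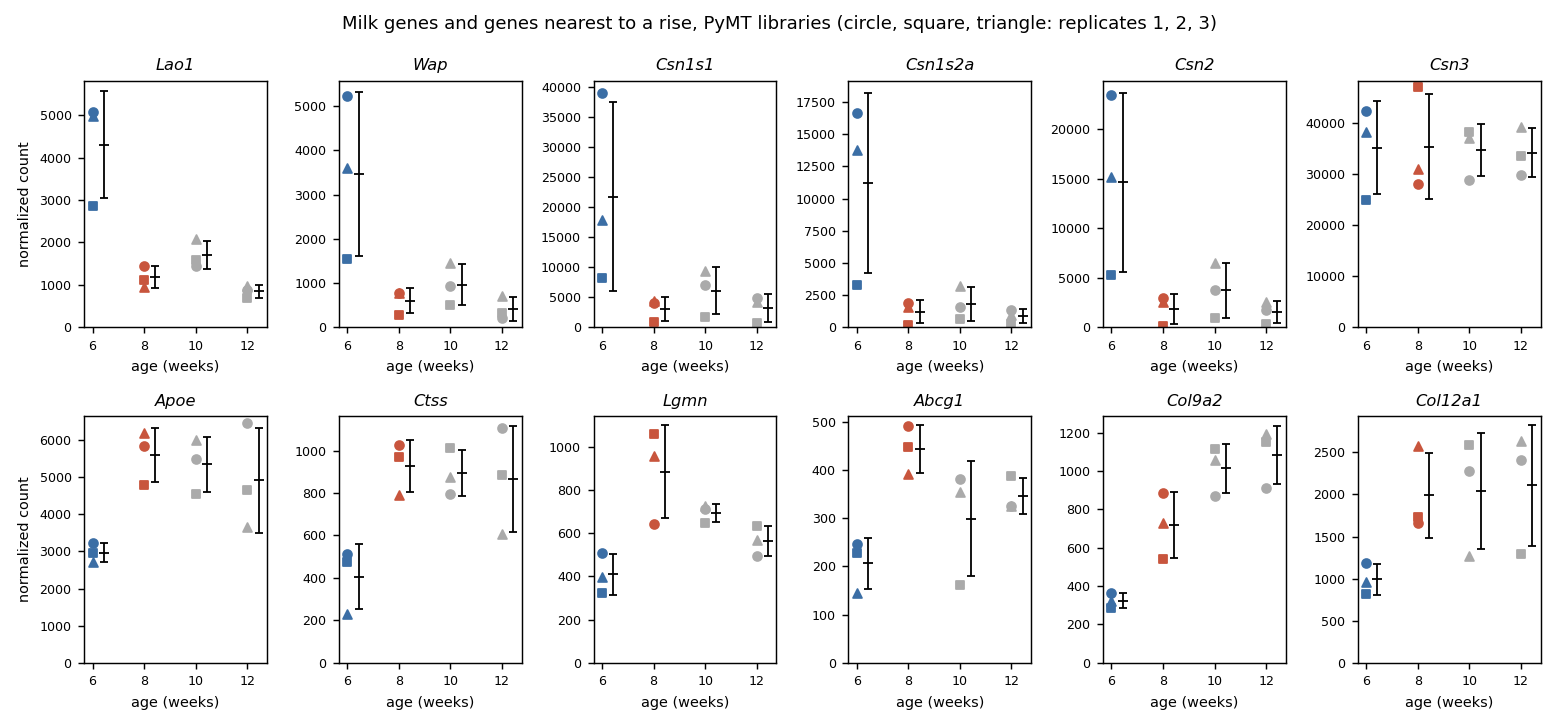
Normalized counts of 6 milk genes (top) and of 6 genes with small p among those higher at week 8 (bottom) in PyMT libraries by age in weeks, with blue for week 6, red for week 8 and gray for weeks 10 and 12, marker shape for the replicate, and bars for mean ± SD (n = 3). Lao1, Wap and the caseins other than Csn3 stay low from week 8 on, Csn3 overlaps between the stages, and only Lao1 among these 12 genes passed the test.

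The promoters of Lao1 and of 3 of the lower milk genes are printed here with the STAT motif searched, TTCNNNGAA on either strand, in capitals, because prolactin signals through STAT5. Each run reads 5′ to 3′ from 250 bases before the start to 50 bases after it, taken from RefSeq on GRCm38.p6, in which 18 of the 24 called genes had an entry. Lao1 lies on the plus strand at chr4:118961717-118962016, Wap on the minus strand at chr11:6638600-6638899, Csn1s2a on the plus strand at chr5:87774200-87774499 and Csn2 on the minus strand at chr5:87699376-87699675.
Lao1: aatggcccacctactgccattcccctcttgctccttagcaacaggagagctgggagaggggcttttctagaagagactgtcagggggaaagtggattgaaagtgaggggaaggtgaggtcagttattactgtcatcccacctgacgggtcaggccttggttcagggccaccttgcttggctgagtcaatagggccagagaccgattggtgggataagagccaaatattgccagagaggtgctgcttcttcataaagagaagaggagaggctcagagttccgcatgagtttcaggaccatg
Wap: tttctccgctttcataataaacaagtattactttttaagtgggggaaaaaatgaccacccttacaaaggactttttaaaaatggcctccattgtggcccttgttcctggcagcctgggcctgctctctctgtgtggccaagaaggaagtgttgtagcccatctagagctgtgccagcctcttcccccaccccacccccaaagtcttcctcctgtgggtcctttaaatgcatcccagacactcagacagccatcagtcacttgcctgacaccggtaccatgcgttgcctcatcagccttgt
Csn1s2a: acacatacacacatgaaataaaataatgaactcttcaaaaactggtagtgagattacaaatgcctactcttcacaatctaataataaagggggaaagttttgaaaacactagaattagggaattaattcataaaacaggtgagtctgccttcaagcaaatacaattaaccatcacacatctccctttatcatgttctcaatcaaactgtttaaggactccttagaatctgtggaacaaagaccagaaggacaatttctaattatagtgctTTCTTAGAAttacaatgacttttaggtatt
Csn2: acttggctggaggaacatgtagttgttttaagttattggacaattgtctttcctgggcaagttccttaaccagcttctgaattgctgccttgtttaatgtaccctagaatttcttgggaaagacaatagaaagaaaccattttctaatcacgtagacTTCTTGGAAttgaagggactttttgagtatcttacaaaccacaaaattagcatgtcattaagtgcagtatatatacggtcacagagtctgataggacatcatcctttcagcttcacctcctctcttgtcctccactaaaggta
The motif was found in the windows of Csn2, beginning 93 bases before the start, and of Csn1s2a, beginning 20 bases after it, and these letters were not in the windows of Lao1 and Wap. Of all 27025 promoters, 8.47% held the motif, and 3 of the 9 milk protein genes with an entry did. A match describes the letters and is not a measured binding site.

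No gene passed as higher at week 8 in edgeR's quasi-likelihood test. Col9a2, Col12a1, Lgmn, Ctss and AL844840.2 did with DESeq2's Wald test, the likelihood ratio test, the exact test and no filter on low counts, and Apoe with limma voom. Abcg1 and Tiam2 passed in 1 other fit each. Of the 10 genes with the smallest p in that direction, Apoe, the lipid carrier apolipoprotein E, came first. Its normalized counts were 3231, 2969 and 2717 in week 6 and 5848, 4794 and 6193 in week 8, with a log2 fold change of 0.94 (SE 0.16, adjusted p = 0.096). In FVB glands of the same ages the value was 0.47 (SE 0.26). Ctss, a lysosomal protease of antigen-presenting cells, stood at 511, 477 and 229 against 1026, 970 and 790, and Lgmn, another lysosomal protease, at 510, 323 and 397 against 644, 1059 and 957. Abcg1, which exports cholesterol from macrophages, had 247, 227 and 145 against 492, 449 and 393. Each of these 4 is abundant in tissue macrophages, although none is exclusive to them.

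Matrix genes were also among the 10. Col9a2, a chain of a fibril-associated collagen, stood at 364, 284 and 321 in week 6 and 884, 540 and 726 in week 8 (log2 fold change 1.17, SE 0.24, adjusted p = 0.26). Col12a1, a chain of another fibril-associated collagen, stood at 1189, 821 and 956 against 1662, 1732 and 2576 (1.03, SE 0.22, adjusted p = 0.34). The abundant collagens did not share this, since Col1a1 had 0.03 (SE 0.32) and Col3a1 -0.21 (SE 0.25). Wwp2, Phf21a, Tiam2 and AL844840.2 completed the 10, with log2 fold changes of 0.79, 0.95, 1.12 and 2.01.

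Macrophage and myeloid markers were higher at week 8 in 15 of 17 genes, where 50.5% of all genes were. Their median change was 0.61 on the log2 scale, or 0.34 without week 6 replicate 3, and no gene was called. In 8 of the 17 the groups did not overlap with week 8 higher, where 5.16% of all genes tested did so. Lyz2, lysozyme, stood at 1353, 1356 and 597 in week 6 and 1762, 2126 and 1964 in week 8, and Csf1r, the receptor for macrophage colony-stimulating factor, at 785, 404 and 639 against 815, 922 and 890. C1qa, C1qb and C1qc, which encode the chains of complement C1q, had values of 0.61, 0.81 and 0.61. Week 6 replicate 3 was the lowest library for Lyz2 and the C1q genes. In FVB the list median was 0.37. The summed list level was 4697 to 7589 in week 6 and 8741 to 9401 in week 8, but the mean log2 level overlapped, at 8.18, 7.76 and 7.18 against 8.18, 8.04 and 8.37.

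Interferon-stimulated genes, the antiviral genes switched on by interferon, were higher at week 8 in 25 of 25 members. The median change was 2.07 on the log2 scale, and none was called (every adjusted p was 1.0). This value rested on week 8 replicate 2 alone. The mean log2 level of the list was 5.63, 5.74 and 5.85 in week 6, and 6.02, 9.09 and 5.70 in week 8. Replicate 2 was the highest of the 6 libraries for each of the 25 genes, where it was the highest for 22.5% of all genes tested. Without it the median was -0.14 and 10 of the 25 were higher at week 8.

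Ifit1, which binds viral RNA, had normalized counts of 35, 32 and 13 in week 6, and 45, 862 and 22 in week 8. Irf7, a transcription factor of the interferon response, stood at 56, 33 and 112 against 123, 1378 and 78, and Oas2, a sensor of double-stranded RNA, at 55, 43 and 77 against 49, 1271 and 28. These 3 genes were singled out after their values were seen, and in all 3 a single library was far above the rest. B2m and H2-K1, of the class I antigen presentation complex, followed the same library, at 6067 against 923 to 1555 for B2m and at 6957 against 1552 to 1953 for H2-K1. The median of the 14 antigen presentation genes was 0.69, and 0.19 without that library. Among the 12 PyMT libraries it was the highest for 23 of the 25 genes, and PyMT week 12 replicate 3 had the next highest list level, at 7.47.

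The promoters of Ifit1 and Oasl1 are shown because both genes had among the largest excesses in that library, 29.4 and 30.4 times the mean of the other 5 libraries. The interferon response motif GAAANNGAAA, searched on either strand, is in capitals. Both lie on the plus strand in RefSeq on GRCm38.p6, at chr19:34640639-34640938 and chr5:114922990-114923289, in the same window.
Ifit1: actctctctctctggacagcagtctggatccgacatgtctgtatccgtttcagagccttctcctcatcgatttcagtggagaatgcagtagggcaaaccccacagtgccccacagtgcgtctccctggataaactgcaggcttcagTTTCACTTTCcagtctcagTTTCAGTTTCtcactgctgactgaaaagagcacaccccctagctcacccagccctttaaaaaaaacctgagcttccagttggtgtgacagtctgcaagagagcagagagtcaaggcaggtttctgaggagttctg
Oasl1: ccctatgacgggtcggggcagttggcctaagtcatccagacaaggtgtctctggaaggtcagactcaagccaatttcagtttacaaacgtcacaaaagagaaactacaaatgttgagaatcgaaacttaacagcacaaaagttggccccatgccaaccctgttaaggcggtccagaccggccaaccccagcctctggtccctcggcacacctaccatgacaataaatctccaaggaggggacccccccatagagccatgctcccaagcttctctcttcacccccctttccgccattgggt
The motif was found 2 times in the window of Ifit1, beginning 104 and 85 bases before the start, and these letters were not in that of Oasl1. It was in 11 of the 19 list members with an entry and in 3.49% of all 27025 promoters. The match describes letters only.

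Week 8 replicate 2 also had the lowest adipocyte marker level of the 6 libraries. The mean log2 level of 20 adipocyte markers was 8.93, 9.92 and 9.62 in week 6 and 9.50, 6.36 and 8.71 in week 8, and 11.74 to 13.13 in FVB glands of the same ages. Fabp4, the fatty acid carrier of adipocytes, stood at 2543, 8108 and 4308 against 3924, 423 and 2444, and the groups overlapped. In 19 of the 20 markers the value was lower at week 8, the median was -0.88, no gene was called, and the median was -0.41 without that library. Without week 8 replicate 1 the adipocyte median was -1.61. Fatty acid synthesis genes had a median of -0.79 over 18 genes, which was -0.45 without week 6 replicate 2 and -1.32 without week 8 replicate 1. Fasn, fatty acid synthase, stood at 18690, 70503 and 19043 against 29192, 4543 and 8503, which overlap, while Scd1, the stearoyl-CoA desaturase, stood at 32926, 68518 and 32105 against 27921, 9908 and 17998 (log2 fold change -1.23, SE 0.38, adjusted p = 1.0). Brown fat genes had a median of -1.36, with 10 of 11 lower at week 8, where 49.5% of all genes were, and none called. That median was -0.09 without week 6 replicate 2 and -2.58 without week 8 replicate 1. With both libraries of packet size above 20 left out it was 0.50. In 1 of the 11 the groups did not overlap with week 8 lower, where 5.46% of all genes tested showed this. Ucp1, at 223, 3765 and 185 against 925, 3 and 122, overlapped between the stages.

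**Figure D3:**
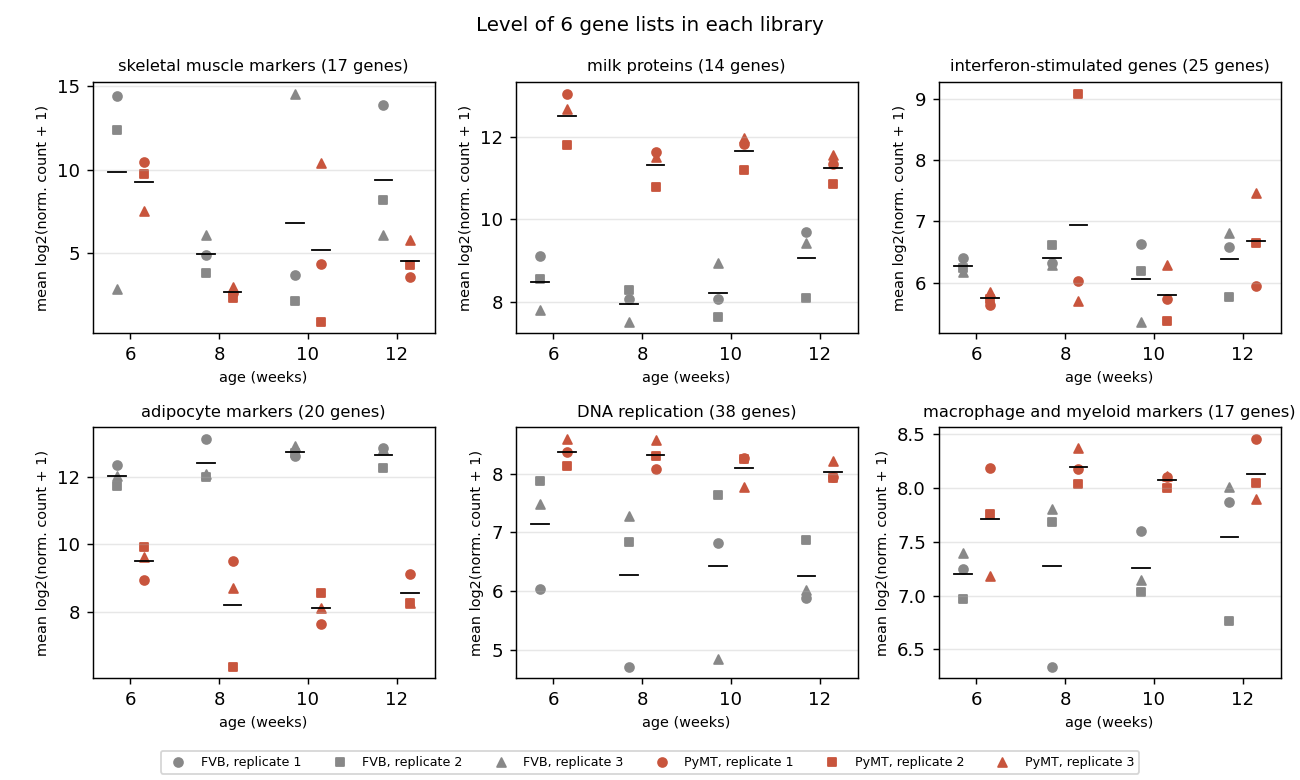
Mean log2(normalized count + 1) over the genes of 6 lists in each of the 24 libraries by age in weeks, gray for FVB and red for PyMT, with marker shape for the replicate and a black line for the mean of 3. The muscle level of PyMT week 6 lies above that of week 8, the interferon-stimulated level is high in 1 of the 3 week 8 libraries (9.09), and the DNA replication levels of both PyMT stages overlap.

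No proliferation gene passed, though most were slightly lower at week 8, 24 of 38 for DNA replication and 32 of 43 for the mitotic spindle and cytokinesis, where 49.5% of all genes were. The median log2 fold change was -0.06 for 38 DNA replication genes and -0.16 for 43 mitotic genes. Leaving out 1 library at a time, the medians ran from -0.21 to 0.02 and from -0.32 to -0.05, with the lowest values without week 8 replicate 3 and the highest without week 6 replicate 3. Mki67, the proliferation marker, stood at 5313, 4959 and 6016 in week 6 and 4152, 3969 and 5415 in week 8 (-0.25, SE 0.17). Top2a, the topoisomerase of dividing cells, had -0.16 (SE 0.17), and Dnmt1, the maintenance DNA methyltransferase, stood at 3017, 2632 and 2895 against 2712, 2173 and 3625 (0.01, SE 0.20). Rrm2, a subunit of ribonucleotide reductase, stood at 1216, 988 and 1446 against 756, 889 and 982, with no overlap (-0.46, SE 0.19, adjusted p = 1.0). Cdk1, Plk1, Aurkb and Hells had values of -0.26, -0.41, -0.26 and -0.40. In FVB the medians of both lists were lower, at -0.68 and -0.65.

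No luminal marker passed either. Krt8, a luminal keratin, stood at 3969, 4373 and 5583 against 4143, 10531 and 5342, where the high value is again week 8 replicate 2, and 15 of the 18 luminal markers were higher, with a median of 0.22. Without that library 10 were higher and the median was 0.04, and without week 8 replicate 1 it was 0.34. Basal markers were mixed, with Krt14, the basal keratin, at 534, 167 and 285 against 593, 498 and 976 (1.09, SE 0.40, adjusted p = 1.0), and Acta2, smooth muscle actin of myoepithelium, at -0.13 (SE 0.37). Of the kinases and regulators downstream of middle T, 21 were tested, none passed, and the median was -0.09, or -0.02 without week 8 replicate 2 and -0.06 without week 6 replicate 3. Pik3r1, the regulatory subunit of PI3-kinase, had 0.09 (SE 0.15). Erbb3 and Egfr, receptors of the ERBB family, had 0.04 (SE 0.17) and 0.14 (SE 0.16). Over the 12 ERBB receptors and ligands tested, values ran from -3.87 to 0.38, and none was called. Their median was 0.04, with 7 higher at week 8. Without week 8 replicate 2 it was -0.35, with 2 higher.

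**Figure D4:**
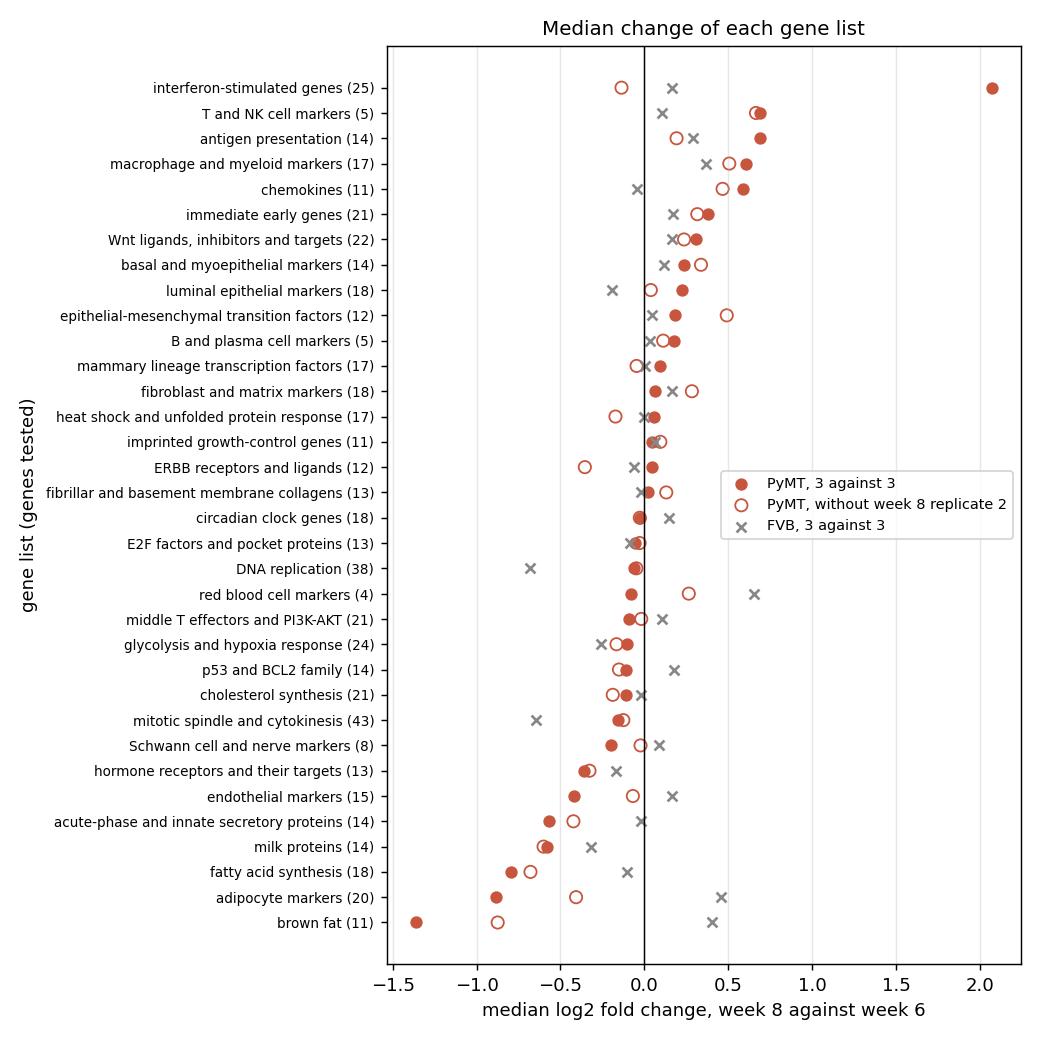
Median log2 fold change of week 8 against week 6 for each of 34 gene lists (number of genes tested in brackets), with filled red for PyMT, open red for PyMT without week 8 replicate 2, and gray crosses for FVB; the skeletal muscle list, at -7.67, is left out of the picture. The interferon-stimulated list moves from 2.07 to -0.14 when that library is left out, and most other lists lie near 0.

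In FVB glands of the same ages no gene passed edgeR's quasi-likelihood test (0.0% of 14918), with 368 (2.47%) at an unadjusted p under 0.05 and 33 called by DESeq2's Wald test. The FVB muscle list had a median of -7.98, close to the value in PyMT, with 1 of the 3 week 6 glands low in muscle RNA. No gene passed the test of the difference between the PyMT and FVB changes, where 345 (2.31%) had an unadjusted p under 0.05 and DESeq2's Wald test called 3. The smallest p in that test belonged to Cxx1c, Slc6a17, Lyrm7, Lgals12 and Timd4. Lgals12, an adipocyte galectin, stood at 398, 287 and 417 in PyMT week 6 and 134, 64 and 138 in week 8, with a log2 fold change of -1.69 (SE 0.36, adjusted p = 0.34) in PyMT and 0.45 in FVB. The other 4 genes were at 0 in the 3 PyMT week 6 libraries and at 10 to 30 in week 8, and reads of Cxx1c can be shared with its near-identical neighbours.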

How the data were processed

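RNA was sequenced from mammary tissue of 24 mice, 3 for each of 2 genotypes at weeks 6, 8, 10 and 12, after ribosomal RNA depletion and a strand-marking library. The authors aligned reads with GSNAP to mm9 and counted them per gene with HTSeq, and the deposited values are raw counts, with totals of 6969375 to 13516601. Pooling was not stated, and each library is 1 mouse by the design text.

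Of 37991 genes, the 14918 that reached 1 CPM in 12 or more of the 24 libraries were kept. Counts were tested with edgeR 4.0.16 (TMM, quasi-likelihood, Benjamini-Hochberg) on the 6 PyMT libraries, on the 6 FVB libraries of weeks 6 and 8, and on all 12 for the difference. Calls needed an adjusted p below 0.05 together with a change of more than 1 on the log2 scale. Normalized counts are counts divided by DESeq2 1.42.0 size factors, and log2 levels use a pseudocount of 1. SE is the log2 fold change divided by the square root of F. Data were also simulated for this comparison over 14918 genes. Summed over repeated simulations, 72% of 300 genes changed 4-fold and 97.3% of 300 changed 16-fold were recovered, and 26 of 534 calls were wrong. The changed genes were drawn only above a minimum mean count. The simulated counts held no packets and no single deviating library, so these rates need not hold for the real data. Packet size is the mode of low gene counts in a library. Named genes were the called ones, the 10 with the smallest p per direction where fewer than 10 passed (mean normalized count of at least 100), the 3 most abundant of each list, genes the study discusses and the 5 smallest p of the difference. Others were named after their values were seen, among them Wap, Csn2, Csn1s2a, Ifit1, Irf7, Oas2 and Oasl1. Some further list members, such as Lalba and Csf1r, were named outside these rules. The members, lists and tests were chosen with earlier results of these data known. Symbols came from GENCODE M1 on NCBIM37. Alternatives covered other tests (DESeq2, limma 3.58.1), scalings, filters, samples and a replicate block. Same-numbered libraries showed no pairing, with correlations of their deviations of -0.025, 0.079 and 0.112. No duplicated library was found among replicates of the same week in PyMT weeks 6 and 8, and other pairs were not checked for this. 1 called muscle gene is not reported here by name.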

Additional observations from a re-analysis of the deposited data

Results flagged for a closer look

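Lyrm7, which encodes a mitochondrial assembly factor, was higher at week 8 in PyMT and lower in FVB without overlap, at counts near the floor. Its normalized counts were 0 in the 3 PyMT week 6 libraries and 22.9, 30 and 10 in week 8, while in FVB they were 31.3, 54.0 and 11.4 in week 6 and 0, 4.65 and 6.78 in week 8. The fitted difference was 10.61 on the log2 scale, with an adjusted p of 1.0 in edgeR's quasi-likelihood test. DESeq2's Wald test and edgeR's likelihood ratio test called it. The 3 PyMT week 6 libraries had packets of 14, 25 and 13 reads and week 8 replicate 2 of 23. Counts this low are therefore poorly resolved in them. The fitted difference also depends on the prior count, since libraries at 0 enter it.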

How the results depend on the processing

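The count of 24 genes between PyMT week 8 and week 6 depended on the fit. It was 53 with DESeq2's Wald test, 59 with edgeR's likelihood ratio test, 47 with its exact test, 2 with limma voom and quality weights, 171 with no filter on low counts, and 38 with counts divided by packet size. It was 0 with all 24 samples in the fit, 1 with all 12 PyMT samples, and 13 with the replicate block, for which the numbers do not pair the samples. Chosen after seeing the data, leaving out muscle-associated genes gave 0, and 1 with all 12 PyMT samples. Leaving out 1 replicate at a time gave 0 to 25, with 0 without week 8 replicate 2, 12 without week 6 replicate 1 and 15 without week 8 replicate 3. The cause was not tested. The FVB count of 0 was 33 with DESeq2's Wald test, 21 with the likelihood ratio test and 0 to 32 when leaving out 1 replicate, with 32 without FVB week 6 replicate 3. The count of 0 for the difference was 3 with DESeq2 and 3 with the likelihood ratio test, and 0 when leaving out any replicate. No named gene that passed, and none of those given for the smallest p, changed direction under any alternative. Depth limits genes of low count most, and in libraries with packets of up to 25 reads a count of 0 allows more than the floor of 3 counts says.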
